A study of Mus musculus with 6 samples.

Results

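Tight junction genes were followed in 6 mouse hepatocellular carcinomas: the claudins Cldn1, Cldn2, Cldn3, Cldn4, Cldn5, Cldn7, Cldn12 and Cldn14, the occludin gene Ocln, and Tjp1, which encodes the scaffold protein ZO-1. They were chosen by name, as the genes of array probes, controls left out, whose accession leads to 1 of these 10 symbols. The 10 genes had 12 of the 56605 distinct probes on the array, with 2 probes each for Cldn2 and Tjp1. All 12 probes were well above background, in the scanner's own call, on both arrays of at least 1 group, which was the filter for testing. With 1 probe per gene, the brighter where there were 2, the 10 genes entered a fit of 27414 features.

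Tight junctions close the gap between neighbouring epithelial cells and set which ions and solutes may pass between them. In liver they border the bile canaliculus, the fine channel between hepatocytes, and keep bile apart from blood. Claudins form the strands of the junction, some as seals and others as pores. Occludin and its relatives in the MARVEL family join these strands, and ZO scaffolds such as ZO-1 tie them to the actin skeleton.

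Each array held RNA of 1 frozen tumour from the C57BL/6 strain, labelled with the dye Cy3 from 0.1 µg of total RNA. The 2 Epcam-derived tumours with CLC and the 2 Epcam-derived tumours without CLC came from Epcam-AID mice that received tamoxifen and then food with 0.1% DDC over 8 months, and the series describes them as derived from ductular progenitor cells. The 2 Albumin-derived tumours, also without CLC, came from Alb-AID mice at 90 weeks. The labels expand neither CLC nor AID. Epcam is a surface protein of bile duct cells, Alb is the albumin gene of hepatocytes, and DDC is a compound that disturbs heme synthesis and drives the growth of ductules. Line, tamoxifen, diet and time differ together between Epcam-derived and Albumin-derived tumours and cannot be told apart. The labels state neither sex nor whether replicates came from separate animals, so the p-values measure the spread between these samples, which may be technical.

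The 75th percentile of processed signal ranged from 285 to 488 across arrays, between 52.0% and 64.6% of probes stood well above background, and the scanner called 0 spots saturated. Across features, which are not independent replicates, the replicates of a group correlated at 0.957 to 0.969. Tumours of different groups correlated at 0.926 to 0.978, so replicates were not always the closest pair. The highest value was for replicate 2 with CLC and replicate 2 without CLC, which shared a slide. Replicate 1 with CLC and both Albumin-derived tumours were hybridised on 1 slide, and replicate 2 with CLC and both tumours without CLC on the other, so that tumours without CLC shared no slide with Albumin-derived tumours. With slide as a block, the comparison of these groups therefore runs only through the 2 tumours with CLC. Any difference between those 2 tumours enters such a value as if it came from the slide. The slide with the Albumin-derived tumours was dimmer, with 75th percentiles of 285 to 315 and 52.0% to 56.5% of probes well above background. The other slide had 424 to 488 and 63.1% to 64.6%. Calls of well above background therefore differ by slide as well as by group. All 10 hepatocyte markers on a fixed list, Alb among them, were well above background on all 6 arrays, with a mean log2 signal of 6.83 to 8.03. Levels are given as log2 processed signal after subtraction of the array's 75th percentile, so that 0 is the brightness at that percentile. Probes differ in brightness for the same amount of RNA, so a level was set against the same gene's level in other tumours and never against another gene's. Values after ± are the standard error (SE) of a log2 difference from the fit, unless SD is written. In bulk tumour RNA, fewer cells of a type and less RNA per cell cannot be told apart. The number of arrays limits the precision of every value.

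No tight junction gene passed limma's test in any of the 3 comparisons (adjusted p under 0.05 over all features, 0 of 10 members each time). The share of all features that passed was 0% for Epcam-derived tumours with CLC against those without CLC. It was 0.244% for Epcam-derived tumours without CLC against Albumin-derived tumours and 0.0620% for those with CLC against Albumin-derived tumours. These last comparisons share the Albumin-derived tumours. At an unadjusted p under 0.05, 0 members were called between tumours with and without CLC, where 3.48% of features were. By the same measure Cldn3, Cldn4 and Ocln were lower in tumours without CLC than in Albumin-derived tumours, 3 of 10 members beside 8.28% of features. Cldn1, Cldn3 and Ocln were lower with CLC than in Albumin-derived tumours, again 3 of 10 members, beside 8.06% of features.

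Cldn1, Cldn3, Cldn4, Cldn12 and Ocln had all 4 Epcam-derived tumours below both Albumin-derived tumours. These were 5 of 10 members, while 18.2% of all features had that order. No member had all 4 Epcam-derived tumours above both Albumin-derived tumours, an order found in 17.6% of features. The median difference over the 10 members was -0.47 without CLC against Albumin-derived tumours and -0.49 with CLC against Albumin-derived tumours, beside medians of 0.06 and -0.01 over all features. Between tumours with and without CLC the members' median was -0.09, beside -0.06 over all features. The median level over the members, taken tumour by tumour, was 0.92 and -0.09 with CLC and 1.17 and -0.18 without CLC. In Albumin-derived tumours it was 0.22 and 0.38, inside the range of both Epcam-derived groups. The pooled within-group SD of that level was 0.69, larger in size than any of these median differences, but it does not measure their spread. Which genes lie in the middle changes by tumour, so that level compares unlike genes. Leaving out 1 tumour, the median differences from Albumin-derived tumours were -0.75 to -0.37 without CLC and -0.65 to -0.31 with CLC. With CLC against without CLC they were -0.13 to 0.18.

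**Figure D1:**
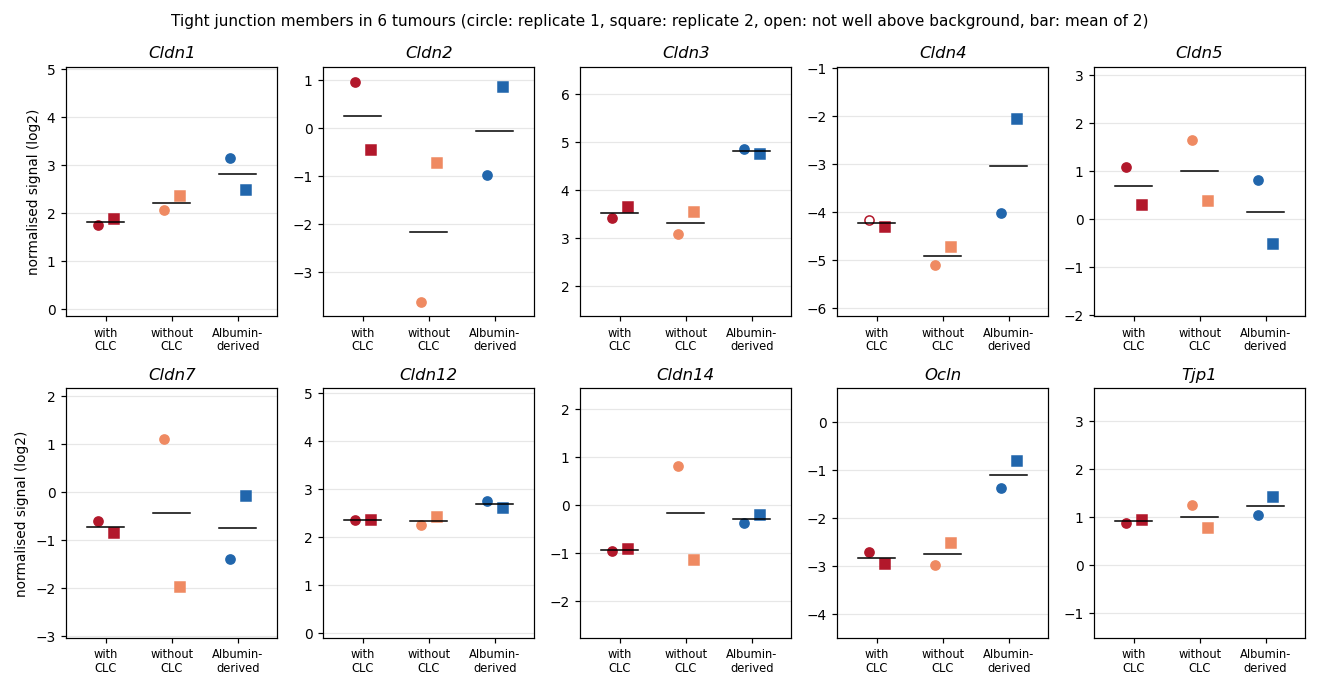
Log2 normalised signal of each of the 10 tight junction genes (y axis, 1 panel a gene, each spanning the same number of log2 units) in Epcam-derived tumours with CLC, Epcam-derived tumours without CLC and Albumin-derived tumours (x axis). Circles are replicate 1, squares replicate 2, open symbols are not well above background and bars are the mean of 2, and Cldn3 and Ocln lie lower in all 4 Epcam-derived tumours, at 3.08 to 3.64 and -2.98 to -2.54, than in both Albumin-derived tumours.

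Cldn3, a sealing claudin that hepatocytes and bile duct cells both make, was lower in all 4 Epcam-derived tumours than in both Albumin-derived tumours. Its level was 3.41 and 3.64 in Epcam-derived tumours with CLC, 3.08 and 3.54 in those without CLC and 4.85 and 4.76 in Albumin-derived tumours. Both Albumin-derived tumours were high and close together, and the 2 Epcam-derived groups overlapped each other. Tumours with CLC were lower than Albumin-derived tumours by 1.28 ± 0.28 on the log2 scale (SE, n = 2 each), a level 2.42-fold lower (limma, adjusted p = 0.143). Tumours without CLC differed from Albumin-derived tumours by -1.49 ± 0.28 (SE, n = 2 each), a level 2.82-fold lower (limma, adjusted p = 0.0992), and by -1.73 with slide as a block. That blocked value, like every later one of this comparison, runs through the tumours with CLC. On the slide that held Albumin-derived tumours and 1 tumour with CLC, the replicate with CLC differed from the Albumin-derived tumours by -1.39.

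Ocln encodes occludin, the best known MARVEL protein of the junction strands. Its level was -2.72 and -2.96 in Epcam-derived tumours with CLC, -2.98 and -2.54 in those without CLC and -1.39 and -0.82 in Albumin-derived tumours. All 6 arrays measured it well above background, and the lowest Albumin-derived value lay above the highest Epcam-derived value. The difference was -1.73 ± 0.33 (SE, n = 2 each) with CLC against Albumin-derived tumours, a level 3.32-fold lower (limma, adjusted p = 0.119). It was -1.65 ± 0.33 (SE, n = 2 each) without CLC against Albumin-derived tumours, a level 3.14-fold lower (limma, adjusted p = 0.101). Tumours with and without CLC differed by -0.08 ± 0.33 and overlapped. Within the shared slide, the Ocln difference was -1.61 with CLC against the Albumin-derived tumours, and with slide as a block it was -1.40 without CLC against Albumin-derived tumours.

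Cldn4, a claudin of ducts and glandular epithelia that restricts ion passage, was a dim probe. Its level was -4.17 and -4.30 in Epcam-derived tumours with CLC, -5.09 and -4.74 in those without CLC and -4.02 and -2.06 in Albumin-derived tumours. The value of -4.17 was not well above background, and Albumin-derived replicate 2 stood far above the other 5 tumours. The difference of -1.88 ± 0.64 (SE, n = 2 each) without CLC against Albumin-derived tumours, a level 3.67-fold lower (limma, adjusted p = 0.205), was -0.89 without that replicate. With CLC against Albumin-derived tumours it was -1.19 ± 0.64 (SE, n = 2 each; limma, adjusted p = 0.432), and -0.21 without that replicate. Tumours with CLC lay above those without CLC, by 0.68 ± 0.64 (SE, n = 2 each; limma, adjusted p = 0.999), and these groups did not overlap.

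Cldn1, the claudin of the epidermal and liver barrier, was stepped across the 3 groups. Its level was 1.73 and 1.87 in Epcam-derived tumours with CLC, 2.05 and 2.35 in those without CLC and 3.14 and 2.47 in Albumin-derived tumours. No group overlapped another, although the gap between the highest tumour without CLC and the lowest Albumin-derived tumour was smaller than the spread within either group. The difference was -1.0 ± 0.32 (SE, n = 2 each) with CLC against Albumin-derived tumours, a level 2.00-fold lower (limma, adjusted p = 0.240). It was -0.60 ± 0.32 without CLC against Albumin-derived tumours and -0.40 ± 0.32 with CLC against without CLC (SE, n = 2 each; limma, adjusted p = 0.353 and 0.999). Leaving out Albumin-derived replicate 1 brought the differences from Albumin-derived tumours to -0.67 with CLC and -0.27 without CLC.

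Cldn12, a widely made claudin that lacks the tail by which most others bind ZO scaffolds, had the narrowest range of the 10 members. Its level was 2.35 and 2.36 in Epcam-derived tumours with CLC, 2.25 and 2.43 in those without CLC and 2.76 and 2.60 in Albumin-derived tumours. All 4 Epcam-derived tumours were below both Albumin-derived tumours, but the whole range was 0.52, less than in all but 9.87% of features. Differences from Albumin-derived tumours were -0.33 ± 0.25 with CLC and -0.35 ± 0.25 without CLC (SE, n = 2 each; limma, adjusted p = 0.564 and 0.464).

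**Figure D2:**
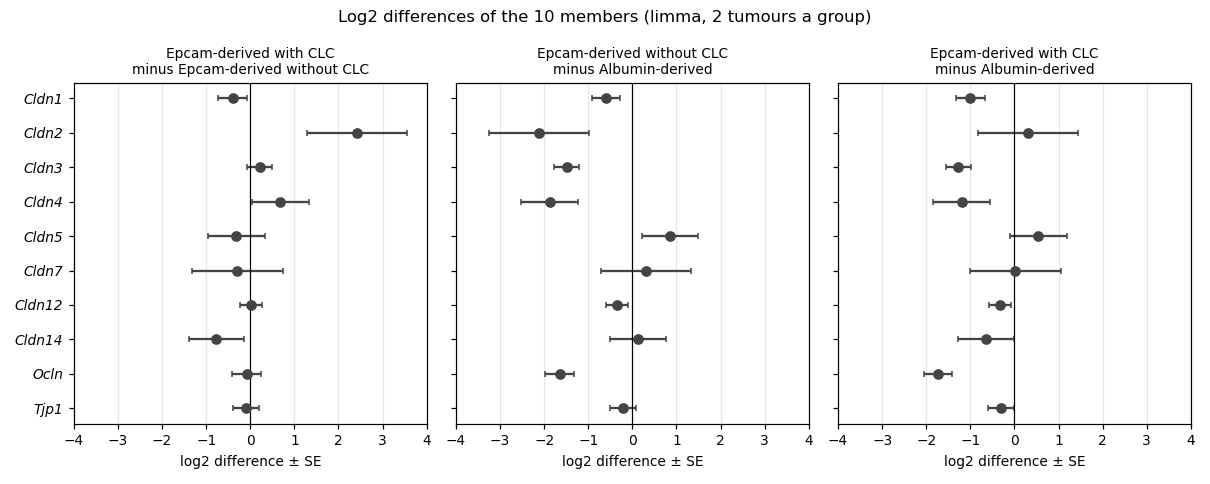
Log2 differences of the 10 tight junction genes (x axis, points, with bars of 1 SE either side from the limma fit) for Epcam-derived tumours with CLC minus those without CLC, Epcam-derived tumours without CLC minus Albumin-derived tumours, and Epcam-derived tumours with CLC minus Albumin-derived tumours. Cldn3 and Ocln lie left of 0 in both comparisons with Albumin-derived tumours, at -1.49 and -1.65 without CLC and -1.28 and -1.73 with CLC, and Cldn2 lies right of 0 with CLC against without CLC, at 2.42.

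Hepatocyte markers had the same order as these genes. Of 10 hepatocyte markers, 10 were lower with CLC and 9 were lower without CLC than in Albumin-derived tumours, none past limma's threshold. Their summed normalised signal, in multiples of the array's 75th percentile, was 2964 to 4098 with CLC, 3122 to 3744 without CLC and 5452 to 5639 in Albumin-derived tumours. Their part in the lower tight junction levels was not tested.

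The promoters of Cldn3, Ocln and Cldn4 are printed because these genes had the largest negative differences among the 5 members that lay below both Albumin-derived tumours. The place of Cldn4 rests on 1 tumour: without Albumin-derived replicate 2 its differences were -0.21 with CLC and -0.89 without CLC. Each promoter is the window from 250 bases before to 50 bases after the gene's start, from RefSeq on build GRCm38.p6, and all 10 members had a window in that table. Where it held several windows for a gene, as for Ocln, the most upstream was taken. Cldn3 is at chr5:134985964-134986263 on the plus strand, Ocln at chr13:100552669-100552968 on the minus strand and Cldn4 at chr5:134946885-134947184 on the minus strand. Capitals mark every match on either strand to CAGGTG, the E-box that SNAI and ZEB repressors bind (its reverse strand reads CACCTG), and to GGGCGG, the GC box (its reverse strand reads CCGCCC).
Cldn3: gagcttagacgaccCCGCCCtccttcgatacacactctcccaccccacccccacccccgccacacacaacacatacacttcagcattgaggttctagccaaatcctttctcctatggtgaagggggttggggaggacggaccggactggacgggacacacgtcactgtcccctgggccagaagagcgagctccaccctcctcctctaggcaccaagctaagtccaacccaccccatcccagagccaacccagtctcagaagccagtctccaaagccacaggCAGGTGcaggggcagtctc
Ocln: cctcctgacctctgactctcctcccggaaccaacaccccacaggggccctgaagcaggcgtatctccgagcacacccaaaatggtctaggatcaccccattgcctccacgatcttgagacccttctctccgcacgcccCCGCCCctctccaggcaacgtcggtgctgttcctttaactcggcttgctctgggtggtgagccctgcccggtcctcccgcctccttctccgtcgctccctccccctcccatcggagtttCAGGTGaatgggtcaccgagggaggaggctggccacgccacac
Cldn4: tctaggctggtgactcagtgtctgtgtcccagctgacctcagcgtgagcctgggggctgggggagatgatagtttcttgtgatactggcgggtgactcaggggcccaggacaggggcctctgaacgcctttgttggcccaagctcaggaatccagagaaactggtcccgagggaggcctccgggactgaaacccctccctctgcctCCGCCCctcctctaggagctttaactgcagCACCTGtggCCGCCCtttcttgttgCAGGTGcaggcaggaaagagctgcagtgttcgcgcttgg

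CAGGTG was found in 3 of the 10 member promoters, those of Cldn3, Cldn4 and Ocln, and in 20.2% of the 32851 promoters of the table. Counted with the start base as 0, the match began at base 31 in Cldn3 and 7 in Ocln, and at -14 and 11 in Cldn4. The other members below both Albumin-derived tumours, Cldn1 and Cldn12, had no match in their windows. GGGCGG was found in 6 of 10 member promoters and 35.7% of all promoters, CCAAT in 3 of 10 and 37.4%, and TATAAA in 1 of 10, that of Cldn2, and 13.6%. The grainyhead site AACCGGTT was in 0 of the 10 and in 0.146% of all promoters, and CAAAGTCCA, which the hepatocyte factor HNF4 binds, in 0 of the 10 and 0.475%. Motifs were searched on both strands, and no 2 of the marked matches overlap. A match is a description of these letters, and no match says only that they are not in this window. Cldn3 and Cldn4 stand next to each other among protein-coding genes on chromosome 5, and Ocln stands next to Marveld2 on chromosome 13.

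Repressors and activators of epithelial genes were on a further list of 14, of which 12 were measured and 0 passed limma's threshold in any comparison. The genes named from it were chosen after their values were seen. Zeb2, a repressor of epithelial genes, had 0.81 and 0.60 with CLC, 0.78 and 0.50 without CLC, and -0.66 and -0.15 in Albumin-derived tumours. Its differences from Albumin-derived tumours were 1.11 and 1.04 (limma, adjusted p = 0.190 and 0.167). All 4 Epcam-derived tumours lay above both Albumin-derived tumours, an order found in 17.6% of features. The means of the leukocyte markers and of the stomach or intestine markers had that order too. Those of endothelial and of stellate cell and fibroblast markers did not. Of the measured leukocyte markers only Adgre1 had it, and Ptprc, Cd3e, Cd8a, Cd68, Clec4f and S100a8 did not. Of the measured stomach or intestine markers, Tff1, Tff2 and Muc5ac had it and Vil1 did not. Which cells made Zeb2, and whether it bears on the genes with an E-box match, was not tested. The repressors Snai1, Snai2 and Zeb1 differed from Albumin-derived tumours by 0.85, -0.55 and -0.07 with CLC and by 0.95, 0.03 and 0.10 without CLC (limma, adjusted p of 0.510 or more).

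Grhl1, a grainyhead factor that keeps epithelia together in skin, had -1.64 and -2.97 with CLC, -4.52 and -3.98 without CLC, and 0.99 and 0.03 in Albumin-derived tumours. No group overlapped another, and the differences from Albumin-derived tumours were -2.81 with CLC and -4.76 without CLC (limma, adjusted p = 0.127 and 0.0569). Its relative Grhl2, an activator of claudin and cadherin genes in epithelia, was well above background on 2 arrays, both of tumours with CLC, at -3.85 and -4.82. Esrp2, a splicing factor of epithelial cells, was at 1.69 and 1.5 with CLC, 1.81 and 1.38 without CLC, and 2.73 and 2.66 in Albumin-derived tumours, lower by 1.1 in each Epcam-derived group (limma, adjusted p = 0.170 with CLC and 0.138 without CLC).

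Cldn2, the pore claudin that lets cations and water through and that in rodent liver is strongest in hepatocytes near the central vein, had the widest range of the members. Its brighter probe read 0.96 and -0.47 in Epcam-derived tumours with CLC, -3.63 and -0.73 in those without CLC and -0.99 and 0.86 in Albumin-derived tumours. Replicate 1 without CLC was far below the other 5 tumours, and the range of 4.58 was wider than in 97.4% of features. Tumours with CLC did not overlap those without CLC and lay higher by 2.42 ± 1.14 on the log2 scale (SE, n = 2 each), a level 5.36-fold higher (limma, adjusted p = 0.999). Without replicate 1 of the tumours without CLC that difference was 0.97, and without replicate 2 it was 3.87. On the slide that held replicate 2 with CLC and both tumours without CLC it was 1.71.

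The other Cldn2 probe read -2.82 and -3.65 with CLC, -4.50 and -4.47 without CLC, and -4.93 and -3.22 in Albumin-derived tumours, where -4.93 was not well above background. It too had both tumours with CLC above both without CLC, by 1.25, but it did not set replicate 1 without CLC apart from replicate 2. Against Albumin-derived tumours the brighter probe gave 0.31 ± 1.14 with CLC and -2.11 ± 1.14 without CLC (SE, n = 2 each; limma, adjusted p = 0.919 and 0.354), and 1.03 and -0.68 with slide as a block. The other probe gave 0.84 and -0.41 for the same comparisons, and the Albumin-derived tumours overlapped both Epcam-derived groups on either probe.

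Pericentral hepatocyte markers, genes of the cells around the central vein, had the same order as Cldn2 between tumours with and without CLC. Of 9 measured pericentral markers, 8 were higher with CLC than without, none past limma's threshold. Their mean log2 signal was 1.64 and 1.65 with CLC, 0.01 and 0.13 without CLC, and 0.46 and -0.63 in Albumin-derived tumours. Their summed normalised signal was 119 to 142 with CLC, 38.5 to 46.5 without CLC and 60.0 to 107 in Albumin-derived tumours. Their part in the level of Cldn2 was not tested. The genes nearest to Cldn2 in pattern, by mean absolute difference of centred log2 levels over the 6 tumours among 9077 named genes with a range of at least 1, were Pkp3 at 0.39, Treh at 0.53 and Sdcbp2 at 0.56.

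Bile duct markers also differed with CLC, and Cldn4 and Cldn7 are claudins of duct-like epithelium. Of 9 measured bile duct markers, 8 were higher with CLC than without, none past limma's threshold. Their mean log2 signal was -0.85 and -0.61 with CLC, -2.10 and -2.33 without CLC, and -2.51 and -1.35 in Albumin-derived tumours. Their summed normalised signal was 62.4 to 111 with CLC, 30.3 to 44.7 without CLC and 6.20 to 39.7 in Albumin-derived tumours, and the list's part in the levels of Cldn4 and Cldn7 was not tested. Epcam itself was at -3.69 and -3.86 with CLC, -5.61 and -5.18 without CLC, and -5.59 and -3.31 in Albumin-derived tumours, with -5.61 and -5.59 not well above background. Albumin-derived replicate 2 was thus the highest tumour for both Epcam and Cldn4.

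**Figure D3:**
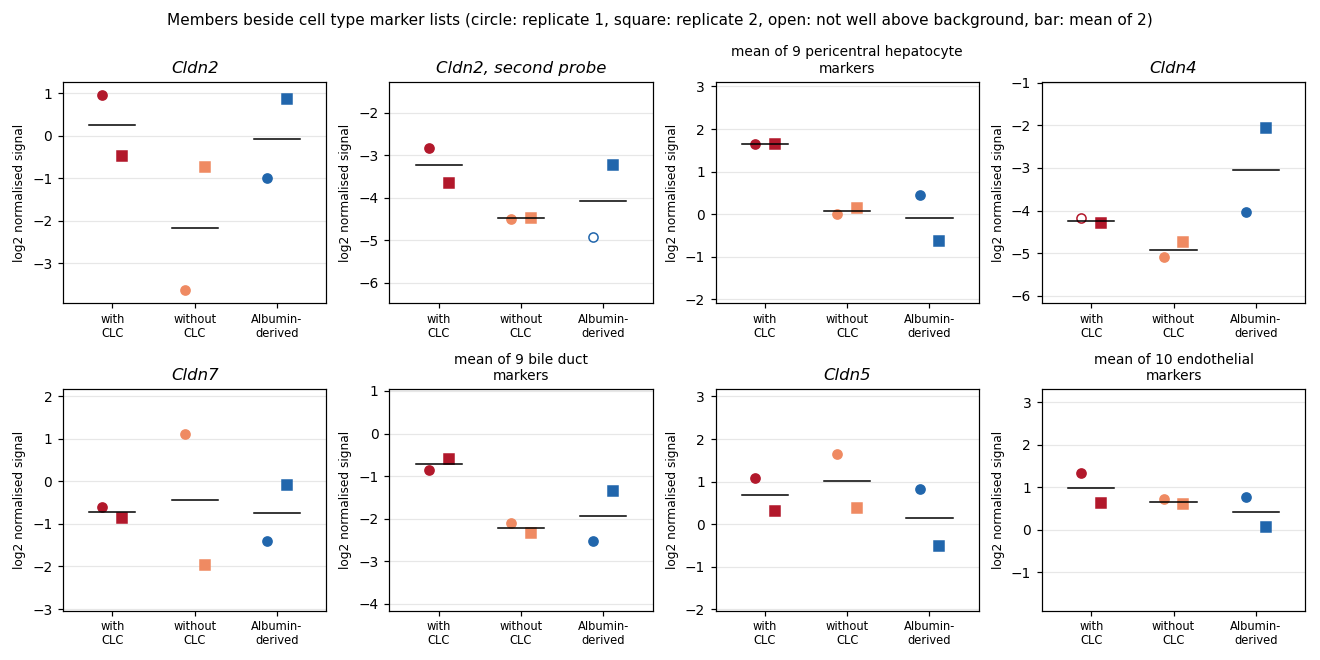
Log2 normalised signal (y axis) of Cldn2 on both of its probes, Cldn4, Cldn7 and Cldn5 beside the mean log2 signal of 9 pericentral, 9 bile duct and 10 endothelial markers, in Epcam-derived tumours with CLC, Epcam-derived tumours without CLC and Albumin-derived tumours (x axis). Circles are replicate 1, squares replicate 2, open symbols are not well above background and bars are the mean of 2, and the pericentral mean of 1.64 and 1.65 with CLC lies above 0.01 and 0.13 without CLC, as both Cldn2 probes do.

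Cldn7, a claudin found along the sides of gut and duct cells, varied within groups more than between them. It had -0.60 and -0.87 in Epcam-derived tumours with CLC, 1.1 and -1.98 in those without CLC and -1.41 and -0.09 in Albumin-derived tumours. The highest and the lowest tumour of all 6 were the replicates of 1 group, those without CLC, and their SD of 2.18 exceeded every difference between groups. Differences were -0.29 ± 1.03 with CLC against without CLC, 0.31 ± 1.03 without CLC against Albumin-derived tumours and 0.02 ± 1.03 with CLC against Albumin-derived tumours (SE, n = 2 each; limma, adjusted p of 0.888 or more).

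Cldn14, which in mice is needed for hearing and is also made in liver and kidney, had a similar split. It had -0.95 and -0.92 in Epcam-derived tumours with CLC, 0.80 and -1.14 in those without CLC and -0.38 and -0.21 in Albumin-derived tumours. Replicate 1 without CLC was again the highest tumour and replicate 2 without CLC the lowest. Tumours with CLC lay below Albumin-derived tumours without overlap, by 0.64 ± 0.63 on the log2 scale (SE, n = 2 each; limma, adjusted p = 0.661). The genes nearest to Cldn7 in pattern, by the measure used for Cldn2, were Tnfrsf25 at 0.14, Maff at 0.17 and Zfp521 at 0.19.

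Replicate 1 without CLC was the highest tumour for Cldn5, Cldn7 and Cldn14 and the lowest for Cldn2, Cldn3, Cldn4, Cldn12 and Ocln. The share of all features at an extreme in that tumour is not given, so this is not shown to be particular to these genes. Some endothelial and fibroblast markers, Pecam1, Cdh5, Lum and Pdgfrb among them, were also highest in that tumour, and others were not. Of 7 markers of stomach or intestine epithelium 4 were measured, and their summed normalised signal was 8.35 in that tumour, against 0.35 to 2.11 in the other 5. Only Tff2 and Vil1 of these 4 were highest in it. Tff2, a mucosal trefoil peptide, read 1.80 in it and -2.17 in replicate 2 without CLC, and Vil1, the microvillus protein villin, read 2.22 and -0.66. The trefoil gene Tff1 read -4.23 there, below the -3.77 of replicate 1 with CLC, and the mucin gene Muc5ac read -2.61, below both tumours with CLC and the other tumour without CLC. The part of such cells in the claudin levels was not tested.

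**Figure D4:**
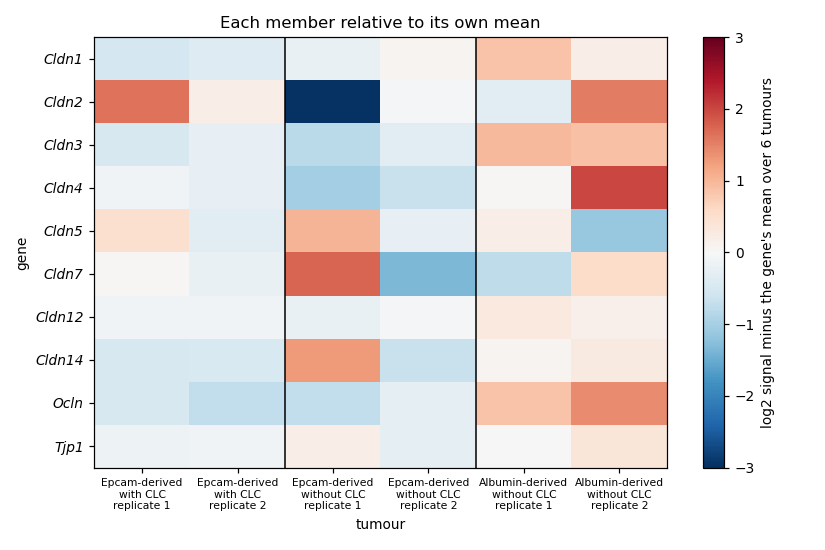
Log2 signal of each tight junction gene (rows) minus that gene's own mean over the 6 tumours (columns, Epcam-derived with CLC, Epcam-derived without CLC, then Albumin-derived), in colour from blue for below to red for above the mean. Replicate 1 of the Epcam-derived tumours without CLC is the highest tumour for Cldn5, Cldn7 and Cldn14 and the lowest for Cldn2, whose level there was -3.63.

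Cldn5, the claudin of vessel walls that seals endothelium, followed no group. It had 1.09 and 0.30 in Epcam-derived tumours with CLC, 1.65 and 0.37 in those without CLC and 0.82 and -0.51 in Albumin-derived tumours. All 3 pairs of groups overlapped, and replicate 1 without CLC was the highest tumour. Differences from Albumin-derived tumours were 0.54 ± 0.64 with CLC and 0.86 ± 0.64 without CLC (SE, n = 2 each; limma, adjusted p = 0.721 and 0.486), and 0.94 and 1.65 with slide as a block. All 10 endothelial markers were well above background on every array, with a mean log2 signal of 1.33 and 0.62 with CLC, 0.72 and 0.60 without CLC, and 0.78 and 0.07 in Albumin-derived tumours. Of the 10 markers, Pecam1, Cdh5, Kdr and Egfl7 were highest in replicate 1 without CLC, as Cldn5 was. The remaining markers were highest in other tumours, as was the mean of the list. The part of these markers in the level of Cldn5 was not tested.

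Tjp1, the ZO-1 scaffold, was among the steadier genes. It had 0.88 and 0.93 in Epcam-derived tumours with CLC, 1.24 and 0.76 in those without CLC and 1.03 and 1.40 in Albumin-derived tumours. Tumours with CLC lay below Albumin-derived tumours without overlap, while those without CLC overlapped both groups, and the range of 0.64 was wider than in only 17.8% of features. Differences from Albumin-derived tumours were -0.31 ± 0.30 with CLC and -0.22 ± 0.30 without CLC (SE, n = 2 each; limma, adjusted p = 0.657 and 0.710), and the other Tjp1 probe gave -0.39 and -0.22.

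Counted over the 10 members, groups did not overlap for 7 lower members and 0 higher members with CLC against Albumin-derived tumours, beside 27.0% and 23.8% of features. Without CLC against Albumin-derived tumours these were 5 lower and 0 higher members, beside 24.8% and 30.4% of features. With CLC against without CLC, Cldn2 and Cldn4 were higher and Cldn1 was lower without overlap, 2 and 1 of 10 members beside 10.3% and 19.8% of features. The last pair of shares is too close to the background to be a result about these genes.

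The rest of the junction was read from a list of 50 other tight junction genes, of which 36 were measured, and 0 passed limma's threshold in any comparison. At an unadjusted p under 0.05, 4 were higher and 2 lower with CLC against Albumin-derived tumours, 4 higher and 6 lower without CLC against Albumin-derived tumours, and 1 higher and 1 lower with CLC against without CLC. The shares of all features called higher and lower in these comparisons were 7.95% and 8.06%, 11.7% and 8.28%, and 1.30% and 2.17%. Their median differences in the same comparisons were -0.10, -0.15 and -0.04. Of these 36 genes, 15 were higher with CLC and 16 were higher without CLC than in Albumin-derived tumours.

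Among other claudins, Cldn15, a pore claudin of the gut, had the widest difference. It read -3.17 and -1.03 in Epcam-derived tumours with CLC, -0.08 and -1.16 in those without CLC and 2.96 and 3.95 in Albumin-derived tumours. Both Albumin-derived tumours stood far above the other 4, and the Epcam-derived groups overlapped. The difference from Albumin-derived tumours was -5.55 ± 0.81 with CLC, a level 47.0-fold lower (SE, n = 2 each; limma, adjusted p = 0.0913), and -4.07 ± 0.81 without CLC, a level 16.9-fold lower (SE, n = 2 each; limma, adjusted p = 0.101). With slide as a block they were -6.63 and -6.22 (limma, adjusted p = 0.146 and 0.394). Leaving out replicate 2 with CLC gave the same -6.63 for the first of these, since both values rest on 1 tumour with CLC. With normexp the difference with CLC was -4.56 and passed (limma, adjusted p = 0.0447).

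Cldn23, a claudin of gut and other barrier epithelia, was well above background on 0 of the 4 Epcam-derived arrays and on both Albumin-derived arrays. Its Epcam-derived readings, from -7.84 to -5.31, give only a bound, and its level was -2.58 and -2.62 in Albumin-derived tumours. It was at least 4.69-fold lower with CLC and at least 7.35-fold lower without CLC than in Albumin-derived tumours. Its probe entered the fit through the Albumin-derived arrays alone. Limma's p-values rest on the dim Epcam-derived readings, do not test these bounds and are left out. A bound compares the brighter group's mean with a floor for the dimmer group, averaged over its arrays: on each array the probe's own signal or the dimmest signal that was called well above background, whichever is higher. Cldn17, an anion pore claudin of kidney, was well above background in tumours without CLC alone, at -4.80 and -4.73, and was at least 1.04-fold lower with CLC.

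**Figure D5:**
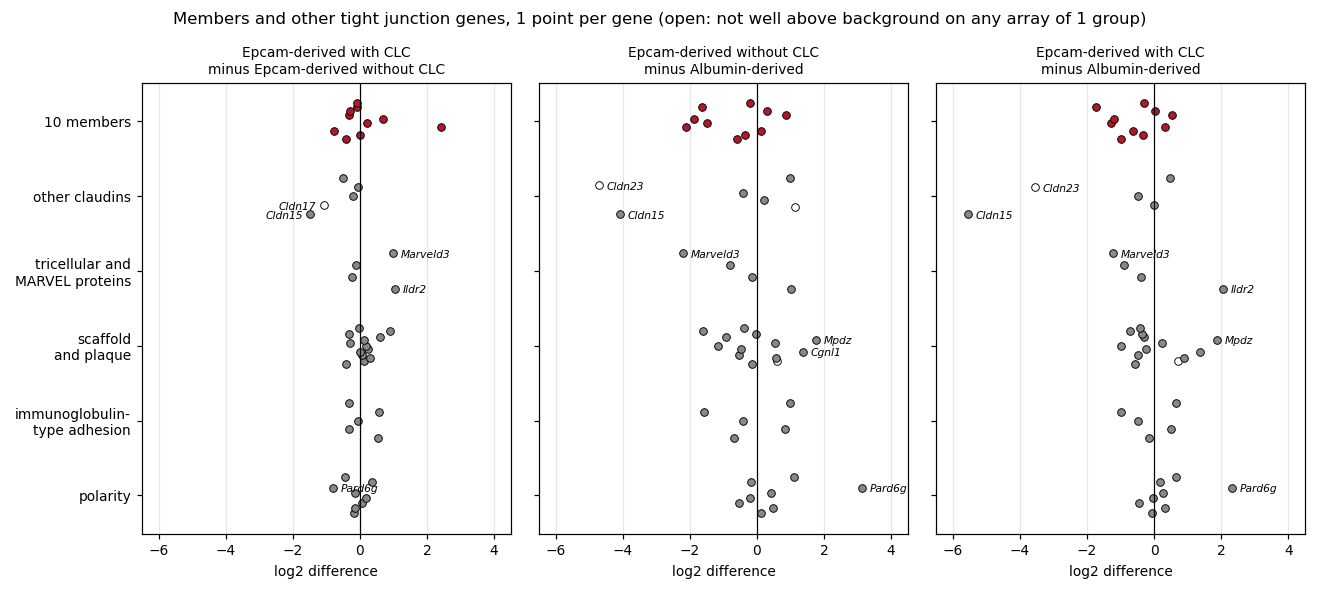
Log2 differences (x axis) of the 10 members and of other tight junction genes by role (rows, 1 point per gene) for Epcam-derived tumours with CLC minus those without CLC, Epcam-derived tumours without CLC minus Albumin-derived tumours, and Epcam-derived tumours with CLC minus Albumin-derived tumours. Open points were not well above background on any array of 1 of the 2 groups, genes that were so in both are left out, and Cldn15 lies farthest left with CLC against Albumin-derived tumours, at -5.55.

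Beside the claudins, the occludin relative Marveld3 read -4.52 and -3.27 with CLC, -5.80 and -3.95 without CLC, and -3.08 and -2.27 in Albumin-derived tumours. Its first replicate was not well above background in either Epcam-derived group, and all 4 Epcam-derived tumours lay below both Albumin-derived tumours. It differed by -1.22 with CLC and -2.20 without CLC from Albumin-derived tumours and by 0.98 with CLC against without CLC (limma, adjusted p = 0.484, 0.204 and 0.999). These were -1.84, -3.45 and 1.61 with slide as a block. Leaving out 1 tumour gave -1.84 to -0.59, -3.13 to -1.27 and 0.052 to 1.91, the last from 0.052 without replicate 1 to 1.91 without replicate 2 of the tumours without CLC, and normexp gave -0.53, -0.96 and 0.43. Marveld2, the tricellular junction protein tricellulin, is named because it adjoins Ocln on the chromosome. It read 0.36 and 1.11 with CLC, 0.51 and 1.16 without CLC, and 1.34 and 1.92 in Albumin-derived tumours, again with all 4 Epcam-derived tumours below (differences of -0.90 and -0.79, limma, adjusted p = 0.366 and 0.341).

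Several genes of the plaque and of polarity lay the other way. Pard6g, a PAR6 polarity protein, read -0.50 and -0.33 with CLC, 1.76 and -0.98 without CLC, and -3.25 and -2.23 in Albumin-derived tumours. All 4 Epcam-derived tumours were above both Albumin-derived tumours, by 2.33 with CLC and 3.13 without CLC (limma, adjusted p = 0.300 and 0.169), and with CLC against without CLC the difference was -0.80. Cgnl1, which encodes the plaque protein paracingulin, read 3.57 and 3.81 with CLC, 3.40 and 3.99 without CLC, and 2.31 and 2.33 in Albumin-derived tumours. It was higher by 1.37 without CLC than in Albumin-derived tumours (limma, adjusted p = 0.115), with no overlap. The scaffold gene Mpdz was higher by 1.88 with CLC and 1.76 without CLC (limma, adjusted p = 0.296 and 0.257). These were 0.94 and -0.12 with slide as a block. Ildr2, of the angulin family of tricellular junctions, was higher by 2.05 with CLC than in Albumin-derived tumours and by 1.05 than without CLC (limma, adjusted p = 0.261 and 0.999). The second of these was 2.06 without replicate 1 and 0.031 without replicate 2 of the tumours without CLC, and 0.68 with slide as a block.

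Tjp3, the ZO-3 scaffold and nearest in kind to Tjp1, was chosen after its values were seen. It read 3.21 and 3.11 with CLC, 1.92 and 2.58 without CLC, and 3.69 and 4.05 in Albumin-derived tumours, so that no group overlapped another. The differences were 0.91 with CLC against without CLC, -1.62 without CLC against Albumin-derived tumours and -0.71 with CLC against Albumin-derived tumours (limma, adjusted p = 0.999, 0.102 and 0.363). Of 14 measured adherens junction, desmosome and gap junction genes, 9 were lower with CLC and 9 lower without CLC than in Albumin-derived tumours, and 0 passed limma's threshold. Cdh1, the E-cadherin of epithelial cells, likewise named with its values seen, read 1.17 and -0.27 with CLC, 0.42 and 0.68 without CLC, and 1.79 and 2.01 in Albumin-derived tumours, with differences of -1.45 and -1.35 (limma, adjusted p = 0.261 and 0.224).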

How the data were processed

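RNA of 6 tumours was read on 6 single-colour arrays, 2 for each of 3 groups taken from the sample titles. The deposited intensity values are processed signals from Agilent Feature Extraction 11.5.1.1, background-subtracted and detrended within each array, per the file headers. The table the authors deposited for the series holds the same intensity values times 1 factor per array, as found by comparing them. Array design annotation follows build mm9 in the file headers, and genes were named by accession through a RefSeq table of GRCm38.p6, which gave a symbol to 22885 probes.

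Spots of controls and those called outliers were not used. Log2 of processed intensity minus the array's 75th percentile was fitted to the deposited values of all 6 arrays with limma 3.58.1 in R 4.3.3 (lmFit and eBayes, 3 residual degrees of freedom, two-sided), with Benjamini-Hochberg adjustment over 27414 features and a threshold of 0.05. A probe had to be well above background (at least 0.5 of its spots) on both arrays of at least 1 group, and the brightest probe stood for a gene. The fit was tested on simulated data. The members, the gene and marker lists and the tests were chosen with earlier results of these data known. From the other tight junction genes, the text names the 3 highest and 3 lowest differences of each comparison, and for the 2 members with the widest range the 3 genes nearest in pattern. Alternatives were quantile normalization, normexp background correction (offset 50, on the median spot signal, as the files used here give no mean), the authors' table, other filters, the mean of a gene's probes, slide or replicate as a block, and leaving out each tumour. Deviations of same-numbered tumours correlated at 0.231, 0.0617 and -0.157 between pairs of groups, so replicate numbers were not taken to pair samples.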

Additional observations from a re-analysis of the deposited data

How the results depend on the processing

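No member passed limma's threshold under any setting run (lowest adjusted p = 0.0596, Cldn3 without CLC against Albumin-derived tumours). Cldn1, Cldn3, Cldn4, Cldn12 and Ocln kept negative differences from Albumin-derived tumours in every setting that measured them. These genes were picked because every Epcam-derived tumour lay below both Albumin-derived tumours. Leaving out 1 tumour or using the authors' table therefore could not turn their sign. The count of members with all Epcam-derived tumours below all Albumin-derived tumours, a count added after seeing the data, was 5 of 10 under each scaling, beside 18.2% of features, 16.7% with quantile normalization and 25% with normexp. It was 5 with no filter (12.4%), 4 of 9 with probes above background on all 6 arrays (19.7%), 7 of 10 within slide 1, which holds 1 Epcam-derived tumour (39.6%), and 5 to 7 leaving out 1 tumour, with 7 without replicate 1 of the tumours without CLC (20.7%). With fewer tumours that count of members could only stay or rise. Counts over all features depended on the processing. Without CLC against Albumin-derived tumours 67 passed, and 102 did with quantile normalization, 134 with normexp, 110 with the mean of probes, 32 with probes above background on all 6 arrays, 1 with no filter, 0 with slide as a block (1996 at an unadjusted p under 0.05), 11 with replicate as a block and 0 to 16 leaving out 1 tumour. With CLC against Albumin-derived tumours 17 passed, and 66 did with quantile normalization, 66 with normexp, 1 with no filter, 0 with slide as a block (3292 unadjusted), 0 within slide 1 (3473 unadjusted), 0 with replicate as a block (4273 unadjusted) and 0 to 334 leaving out 1 tumour, where 334 was without replicate 2 with CLC. With CLC against without CLC 0 passed (953 unadjusted) and 0 to 268 did leaving out 1 tumour, where 268 was also without replicate 2 with CLC. The causes were not tested. The replicate block changed no member's call.

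Normexp moved the median of all features to 0.03 with CLC against without CLC, -0.16 without CLC against Albumin-derived tumours and -0.12 with CLC against Albumin-derived tumours. It turned Ocln with CLC against without CLC to 0.12 and Cldn7 with CLC against Albumin-derived tumours to -0.049. Slide as a block turned Mpdz without CLC against Albumin-derived tumours to -0.12. Leaving out 1 tumour turned signs with CLC against without CLC for Cldn3 (-0.017 to 0.45), Cldn5 (-0.95 to 0.32), Cldn7 (-1.83 to 1.24), Cldn12 (-0.073 to 0.11), Cldn14 (-1.74 to 0.20), Ocln (-0.30 to 0.14), Tjp1 (-0.33 to 0.15) and Pard6g (-2.17 to 0.57). It did so without CLC against Albumin-derived tumours for Cldn7 (-1.23 to 1.85), Cldn14 (-0.85 to 1.1) and Tjp1 (-0.46 to 0.026), and with CLC against Albumin-derived tumours for Cldn2 (-0.62 to 1.24), Cldn5 (-0.12 to 1.20) and Cldn7 (-0.64 to 0.68). A fit without 1 tumour assumes that the lone tumour of its group varies like the others. Dim probes, such as those of Cldn4, Cldn17 and Marveld3, limit what signal over background can show.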

Other observations

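Markers of other cell types were read as background for the junction genes, and their part in those levels was not tested. Of 8 periportal hepatocyte markers, genes of the cells around the portal tract, 7 were lower with CLC than without CLC, with a mean log2 signal of 3.08 and 2.67 with CLC, 3.54 and 3.30 without CLC, and 3.65 and 2.78 in Albumin-derived tumours. The groups with and without CLC did not overlap, and each of them overlapped the Albumin-derived tumours. The mean of 7 measured leukocyte markers was 1.42 and 0.92 with CLC, 0.46 and 0.57 without CLC, and -0.19 and 0.21 in Albumin-derived tumours, so that no group overlapped another. The mean of 8 stellate cell and fibroblast markers was 2.53 and 2.33 with CLC, 2.67 and 1.59 without CLC, and 1.16 and 1.93 in Albumin-derived tumours, where the tumours without CLC overlapped both other groups. Of 4 mesothelium markers 2 were measured, with a mean of -3.45 and -1.20 with CLC, -3.56 and -5.44 without CLC, and -4.62 and -3.61 in Albumin-derived tumours.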
